A study of Mus musculus with 14 samples.

Results

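The comparison described here set the cortex of mice with 2 copies of the DG allele of Vcp against that of wild-type mice, over 8 of the 14 libraries of the series. There were 4 DG/DG mice, named HOM1 to HOM4 by mouse number, and 4 wild-type control mice (WT), named WT1 to WT4. All mice were C57BL/6J, were 15 months old and gave anterior cortex, from which total RNA was extracted and sequenced as 1 library per mouse. The remaining 6 libraries came from DG/+ mice, which carry 1 copy of the allele, and are not compared here. They entered the choice of transcript per gene, the choice of genes tested, the scaling of counts and the estimate of the spread between mice. DG is described in the labels as a hypomorph mutation of Vcp, so both groups carry the gene and its transcript level does not check the genotype. The labels state no sex, litter or batch. The deposited table listed 24939 transcripts of 19360 genes, of which 1 transcript per gene was kept and 14565 genes had enough reads to be tested.

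Vcp encodes a hexameric AAA ATPase, an unfoldase that pulls ubiquitinated proteins out of membranes, complexes and aggregates with the help of adaptor proteins. Its clients are passed to the proteasome or to refolding, and the enzyme also acts in endoplasmic reticulum associated degradation (ERAD), in autophagy and in the clearance of damaged lysosomes. In neurons it has been studied for its part in taking apart aggregates of tau, and mutations of the human gene cause a multisystem disease with frontotemporal dementia.

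Several libraries held high levels of marker genes of tissues other than anterior cortex, and these are given before any result. HOM1 held the pituitary hormone transcripts Gh, Prl and Pomc at 1049, 2737 and 322 CPM (counts scaled to the size of each library, with trimmed mean of M values or TMM factors), and the 16 pituitary markers in the table summed to 4400 CPM there, against 127 to 190 CPM in the other DG/DG libraries and 116 to 175 CPM in WT, where Gh was at 0 in WT2. WT4 held high choroid plexus markers, with Ttr, the thyroid hormone carrier of that epithelium, at 1173 CPM, and the 20 choroid plexus markers in the table summed to 97.5 to 117 CPM in DG/DG, against 1580 CPM in WT4 and 82.4 to 122 CPM in the other WT libraries. Striatal markers were high in HOM3, where the 19 genes in the table summed to 3490 CPM, against 776 to 1820 CPM in the other DG/DG libraries and 988 to 1920 CPM in WT. Hypothalamus and basal forebrain markers were high in HOM3 and WT1, where the 22 genes in the table summed to 638 CPM in HOM3 and 146 to 324 CPM in the other DG/DG libraries, against 624 CPM in WT1 and 118 to 466 CPM in the other WT libraries. Pmch, a neuropeptide gene of the lateral hypothalamus, stood at 53.2 CPM in HOM3 and 0.295 to 0.640 CPM in the rest of DG/DG, against 40.45 CPM in WT1 and 0.231 to 0.521 CPM in the rest of WT. The cerebellar granule cell genes Cbln3 and Fat2 stood at 21.5 and 40.8 CPM in WT3, while no DG/DG library passed 1.28 CPM for Cbln3 and 2.88 CPM for Fat2. The thalamic marker Prkcd stood at 9.20 to 13.98 CPM in DG/DG, against 61.3 CPM in WT2 and 12.3 to 19.5 CPM in the other WT libraries. Xist, the RNA of the inactive X chromosome, was above 100 CPM in 3 of the 4 DG/DG libraries and in 2 of the 4 WT libraries, and the Y-linked Kdm5d was found only in the others. The part of these differences in the results below was not tested unless a value without the library is given.

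**Figure D1:**
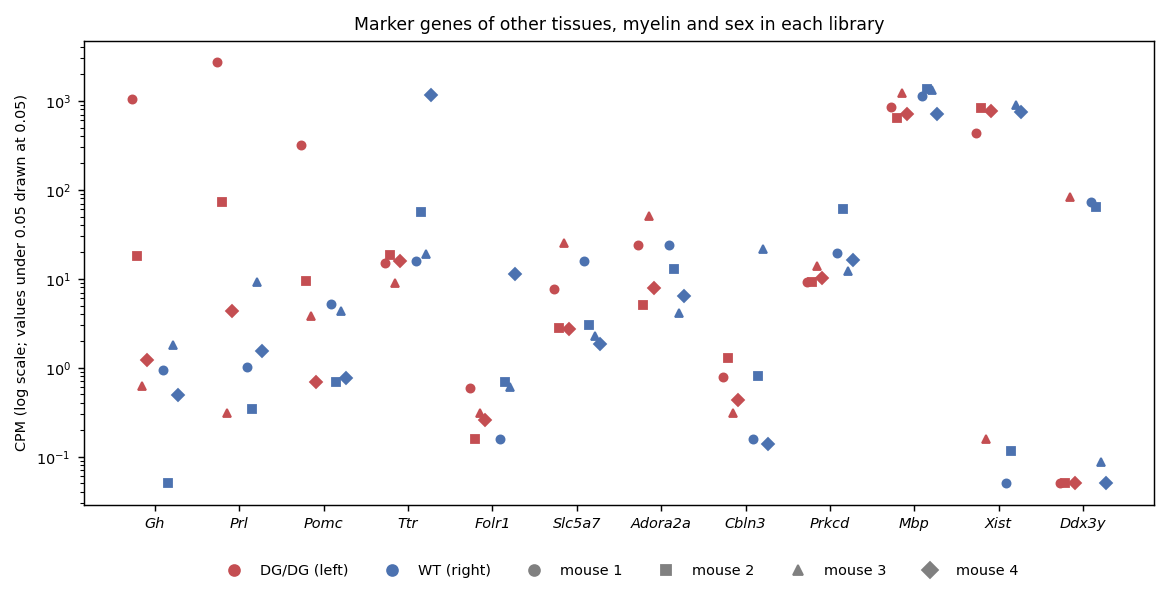
CPM on a log scale (values under 0.05 drawn at 0.05) of 12 marker genes in the 4 DG/DG libraries (red, left) and the 4 WT libraries (blue, right), 1 point per mouse with its shape giving the mouse number. HOM1 stands apart for Gh, Prl and Pomc, WT4 for Ttr and Folr1, and Xist and Ddx3y split both groups.

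Vcp transcript read slightly higher in the DG/DG libraries, a difference that did not pass the test over all genes. Its level was 114, 107, 115 and 107 CPM in HOM1 to HOM4, against 102, 85.3, 98.4 and 104 CPM in WT1 to WT4. The lowest DG/DG library lay above the highest WT library, with means of 111 ± 4.59 CPM in DG/DG and 97.3 ± 8.32 CPM in WT (SD, n = 4 each). The log2 fold change of 0.18 (SE 0.070, 95% interval 0.035 to 0.33) had an adjusted p of 0.886 by edgeR's quasi-likelihood test across all genes. In the authors' deposited edgeR results the log2 fold change of Vcp was 0.19, with an unadjusted p of 0.133. A two-sided exact permutation test of log2 CPM gave p = 0.0286, the smallest that the 70 splits of 8 libraries allow, which follows for any gene whose groups do not overlap. Among the libraries with Xist the log2 fold change was 0.12, a subset chosen after seeing the data. Vcp lies at chr4:42979964-43000507 (GRCm38.p6).

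No gene passed an adjusted p of 0.05 in DG/DG against WT: edgeR called 0 of 14565 genes (0%), and the smallest adjusted p was 0.886. DESeq2 and limma-voom also called 0 genes. At an unadjusted p below 0.05 edgeR listed 746 genes (5.12%), where 728 are expected if no gene differs, while DESeq2 listed 728 and limma-voom 634. Of the 746, 312 were higher in DG/DG (2.14% of all genes) and 434 were lower (2.98%). With the authors' normalized log2 values the split was 430 higher and 365 lower. All genes and lists named below are therefore given as values. None of the gene differences passed the test, and no test was run on any list. Counts within a list are to be set beside the shares of all genes, 2.14% higher and 2.98% lower.

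Fold changes were small for most genes. The middle 50% of log2 fold changes ran from -0.12 to 0.093 around a median of 0.00, 50.1% of genes were higher in DG/DG, and 66 genes exceeded 1 in either direction on the log2 scale. The 95% interval of the log2 fold change lay within ±0.5 for 9330 genes (64.1%) and within ±1 for 89.1%. The 4 DG/DG libraries did not overlap the 4 WT libraries for 382 genes (2.62%), lying above them for 209 (1.43%) and below them for 173 (1.19%).

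A single control library, WT2, was most often the extreme one among genes at an unadjusted p below 0.05. It was the lowest WT library for 169 of the 312 genes higher in DG/DG (54.2%) and the highest WT library for 315 of the 434 genes lower in DG/DG (72.6%). Over all tested genes these shares were 35.5% of those higher and 41.0% of those lower in DG/DG. WT1 lay inside the DG/DG range for 98 of the 312 and 197 of the 434 genes, whereas WT2 lay inside it for 27 and 17. Without WT2 the number at an unadjusted p below 0.05 was 345, without WT1 it was 1466, without WT4 it was 1367 and without both HOM1 and WT4 it was 1402, the last chosen after seeing the data. No gene passed the adjusted threshold in any of these fits.

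**Figure D2:**
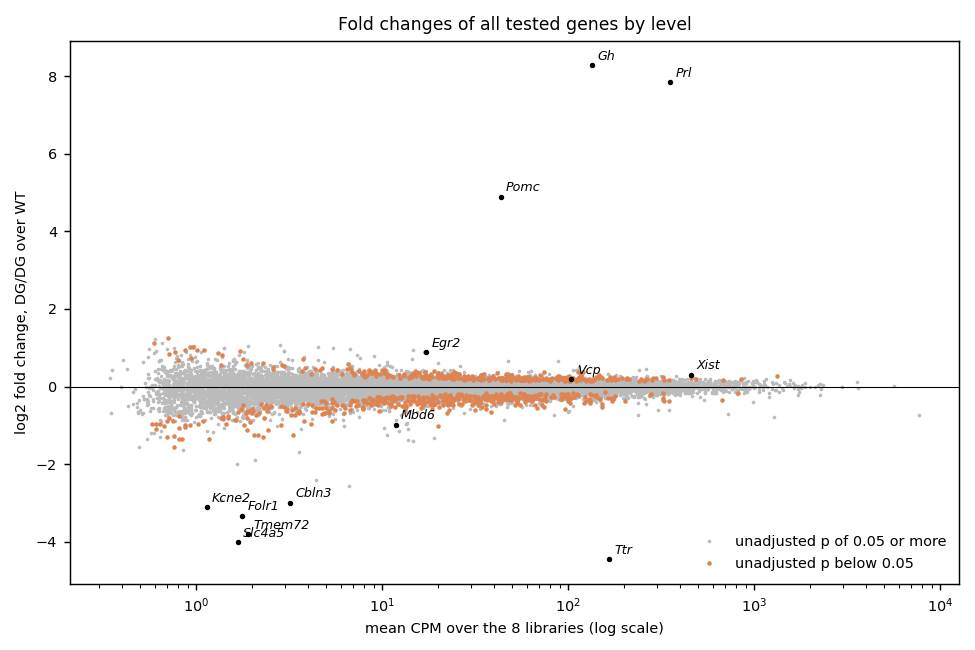
Log2 fold change of DG/DG over WT against the mean CPM of the 8 libraries (log scale) for the 14565 tested genes, with genes at an unadjusted p below 0.05 in orange and genes of the text labelled. Most genes lie within 0.5 of 0, and the points beyond 3 are pituitary and choroid plexus transcripts.

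The genes of largest fold change were mostly pituitary and choroid plexus transcripts. The pituitary hormone genes Gh, Prl and Pomc had log2 fold changes of 8.28, 7.85 and 4.90 with HOM1 included. Without HOM1 and WT4, left out after seeing the data, these were 2.75, 2.84 and 0.43. HOM2 held these 3 transcripts at 17.9, 72.6 and 9.44 CPM, above every WT library. The next on the higher side, 5330437I02Rik and Slc10a4, had log2 fold changes of 1.08 and 1.05. 5330437I02Rik stood at 11.6 CPM in HOM1, 0.937 to 1.74 CPM in the other DG/DG libraries and 1.27 to 2.08 CPM in WT. Slc10a4, a solute carrier of synaptic vesicles, stood at 0.0872 to 6.87 CPM in DG/DG and 0.174 to 3.71 CPM in WT, highest in HOM3 and WT1, the libraries with the highest basal forebrain markers. On the lower side Ttr, Slc4a5, Tmem72, Folr1 and Kcne2, which are all expressed in choroid plexus, had log2 fold changes of -4.44, -4.01, -3.80, -3.33 and -3.11, and each was at its highest in WT4. The median log2 fold change of the 19 choroid plexus markers was -1.65, and -0.044 without WT4. In the authors' deposited table Gh was the single transcript below a false discovery rate of 0.05, at 0.0364.

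Ribosomal protein genes stood higher in DG/DG cortex as a group. Cytosolic ribosomal proteins, the structural proteins of the small and large subunits, had a positive log2 fold change for 70 of 78 tested genes and a list median of 0.19, where the median over all genes was 0.00. Within the list, 26 were higher at an unadjusted p below 0.05 and 0 were lower, beside 2.14% and 2.98% of all genes. Averaged over its members on the log2 CPM scale, the list stood at 4.43, 4.58, 4.46 and 4.42 in HOM1 to HOM4, against 4.34, 4.34, 4.25 and 4.30 in WT1 to WT4, so that the groups did not overlap on this scale. Summed over its members, it stood at 3930, 3940, 3980 and 3740 CPM in HOM1 to HOM4, against 3840, 3270, 3170 and 3430 CPM in WT1 to WT4. On the sum WT1 lay above HOM4. The mouse genome holds many processed copies of these genes, and how reads shared with them were counted is not given in the sources used here. The median stayed between 0.15 and 0.22 when each library was left out, and was 0.12 when an offset took up the GC content and length of transcripts. Across all genes the log2 fold change had a median of 0.06 in the 25% of genes with the lowest GC content and -0.071 in the 25% with the highest. The ribosomal list had a mean GC content of 51.9%. Genes of 50.5 to 55.2% GC content had a median of -0.016. Across 14314 genes the log2 fold change had a rank correlation of -0.292 with GC content and -0.113 with transcript length. The part of GC content and length in the values of the ribosomal list was not tested beyond the offset above.

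Rps25, a small subunit protein that contacts viral internal ribosome entry sites, had the smallest p among genes higher in DG/DG at a mean of 1 CPM or more. It stood at 45.7, 50.2, 46.1 and 43.0 CPM in HOM1 to HOM4, against 38.9, 36.1, 35.2 and 35.5 CPM in WT1 to WT4, without overlap, and its log2 fold change was 0.34 (SE 0.078, unadjusted p 0.000444, adjusted p 0.886 by edgeR). Rps7, another small subunit protein, stood at 28.5, 31.03, 27.7 and 23.4 CPM in DG/DG, against 22.99, 20.6, 21.4 and 20.1 CPM in WT, a log2 fold change of 0.38 (SE 0.10). The large subunit protein gene Rpl7 stood at 89.0, 88.2, 81.5 and 77.3 CPM in DG/DG, against 75.6, 54.4, 61.6 and 68.7 CPM in WT. In all 3 genes the lowest DG/DG library was HOM4 and lay above the highest WT library, which was WT1. Rps2 stood at 36.5 to 42.0 CPM in DG/DG, against 27.2 to 34.7 CPM in WT, also without overlap. Rps3a reached 70.2 to 81.8 CPM in DG/DG and 59.1 to 72.5 CPM in WT, and WT1 overlapped the DG/DG range.

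Ribosomal protein genes of mammals are described as starting transcription within a tract of pyrimidines, and the start regions of Rps25 and Rps7 are shown for that reason. Each sequence runs from 40 bases before to 20 bases from the annotated start, 5′ to 3′ on the gene's strand (RefSeq, GRCm38.p6), with capitals marking CTTTC or CTTTT or CTCTT or CCTTT or CTTCC or TCTTT, strings that can overlap each other and were chosen after seeing the data.
Rps25, chr9:44407674-44407733, plus strand: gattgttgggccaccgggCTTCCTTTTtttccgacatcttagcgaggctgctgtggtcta
Rps7, chr12:28635934-28635993, minus strand: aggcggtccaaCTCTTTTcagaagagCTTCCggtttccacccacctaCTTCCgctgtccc
Windows that lie at the outermost annotated start of the gene were counted, which left 50 of the 58 ribosomal protein genes with an entry and 19827 of all 27025 genes. At least 1 of the 6 strings lay in the window on the gene's strand for 26 of these 50 genes (52.0%), against 6701 of all 19827 genes (33.8%). The capitals in the sequences of Rps25 and Rps7 do not cover the annotated start itself. A match is a description of the letters in the window.

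Translation factors were higher in DG/DG for 24 of 33 genes, with a median log2 fold change of 0.054. Of these, 7 were higher at an unadjusted p below 0.05 and 0 lower, beside 2.14% and 2.98% of all genes. Eef1a1, which carries aminoacyl-tRNA to the ribosome, stood at 1437, 1421, 1503 and 1423 CPM in DG/DG, against 1384, 1018, 1056 and 1331 CPM in WT. The DG/DG libraries were close to each other, and WT1 and WT4 lay just under them. Eif4a2, an RNA helicase of translation initiation, stood at 486 to 567 CPM in DG/DG, against 392 to 485 CPM in WT. Mitochondrial ribosomal proteins were higher in DG/DG for 57 of 76 genes, with a median of 0.079 (0.039 with the length and GC offset). Mrpl21 stood at 15.5 to 17.5 CPM in DG/DG, against 12.1 to 13.2 CPM in WT, and Mrpl12 went the other way, at 13.8 to 25.8 CPM in DG/DG and 18.7 to 29.6 CPM in WT.

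Nuclear genes of oxidative phosphorylation were higher in DG/DG for 71 of 75 tested members, with a median log2 fold change of 0.11. Of these, 10 were higher at an unadjusted p below 0.05 and 0 were lower, beside 2.14% and 2.98% of all genes. Atp5g3, a subunit of the ATP synthase ring, stood at 118, 121, 126 and 120 CPM in HOM1 to HOM4, against 110, 91.9, 107 and 117 CPM in WT1 to WT4. Ndufv2 of complex I stood at 89.5 to 102 CPM in DG/DG, against 75.02 to 93.2 CPM in WT, where WT1 overlapped. The list median was 0.18 without WT1, 0.077 without WT2 and 0.056 with the length and GC offset. For the average level of the list, WT1 and HOM3 were the highest libraries of their groups and WT2 and WT3 were the lowest of all 8. The deposited table held 0 genes with the symbol prefix of mitochondrially encoded genes, so these could not be described.

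Glycolysis genes were higher in DG/DG for 12 of 17 members, with a median of 0.035. Pgk1, the X-linked phosphoglycerate kinase, stood at 54.8, 53.4, 54.3 and 49.95 CPM in DG/DG, against 47.6, 38.3, 42.7 and 43.1 CPM in WT, a log2 fold change of 0.31 (SE 0.080). Ldha, lactate dehydrogenase A, stood at 216 to 232 CPM in DG/DG, against 170 to 212 CPM in WT. Neither gene overlapped between the groups, beside 2.62% of all genes without overlap.

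**Figure D3:**
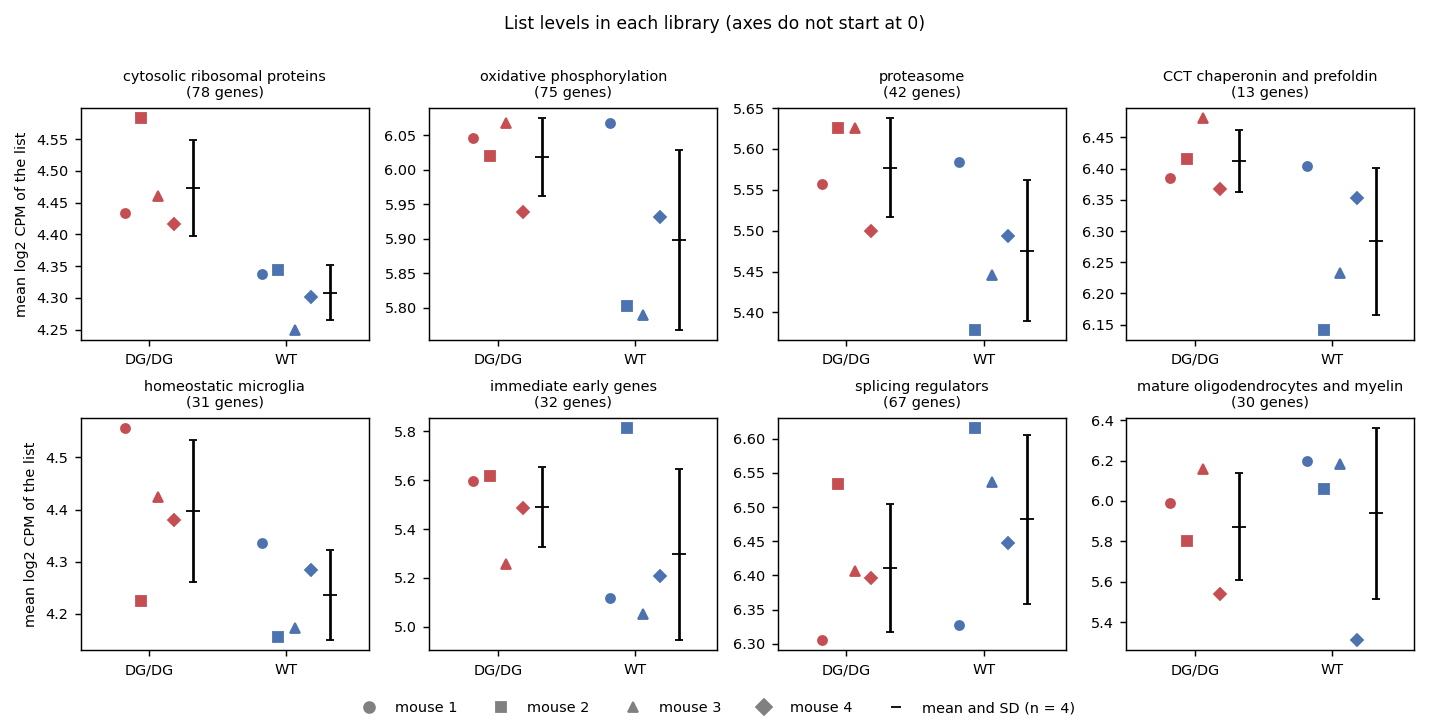
Mean log2 CPM of the tested members of 8 gene lists in each DG/DG library (red, left) and each WT library (blue, right), with the mean and SD of each group (n = 4) and the shape giving the mouse number. The groups do not overlap for cytosolic ribosomal proteins, and WT1 lies within or next to the DG/DG range for oxidative phosphorylation, proteasome and chaperonin genes.

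Genes of the ubiquitin-proteasome pathway that act next to Vcp differed little. Vcp cofactors, the adaptors and ubiquitin ligases that bring clients to the enzyme, were higher in DG/DG for 18 of 33 genes. Their median log2 fold change was 0.007, and 0 members reached an unadjusted p below 0.05 in either direction, beside 5.12% of all genes. The smallest p in the list was that of Wrnip1, which stood at 56.6 to 61.0 CPM in DG/DG and 42.5 to 59.0 CPM in WT. Ube4b, which lengthens ubiquitin chains on Vcp clients, stood at 112.5 to 137 CPM in DG/DG and 129.7 to 149.8 CPM in WT. Its 95% interval of log2 fold change ran from -0.25 to 0.055.

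Proteasome subunits were higher in DG/DG for 36 of 42 genes, with a median of 0.12. At an unadjusted p below 0.05, 4 were higher and 0 lower, beside 2.14% and 2.98% of all genes. Psmb1, a core subunit, stood at 95.1, 103, 101 and 94.0 CPM in DG/DG, against 93.3, 71.4, 74.3 and 85.6 CPM in WT. WT1 lay just below the DG/DG libraries and WT2 and WT3 lay well below them. The list median was 0.077 without WT2 and 0.062 with the length and GC offset. Subunits of the CCT chaperonin and prefoldin, which fold actin and tubulin, were higher for 12 of 13 genes, with a median of 0.14 (0.080 without WT2). Cct6a stood at 118 to 126 CPM in DG/DG and 91.1 to 118 CPM in WT.

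Genes of ERAD and the unfolded protein response were higher in DG/DG for 27 of 34 members, with a median of 0.079. At an unadjusted p below 0.05, 1 was higher and 1 lower, near the shares of 2.14% and 2.98% over all genes. Syvn1, the ubiquitin ligase Hrd1 of the ERAD channel, stood at 28.4, 28.6, 28.8 and 30.7 CPM in DG/DG, against 32.1, 42.3, 34.7 and 32.3 CPM in WT. Its DG/DG values all lay below the WT values, and WT2 was the highest. Edem3, which trims mannose from misfolded glycoproteins, stood at 99.6 to 116 CPM in DG/DG and 91.2 to 97.9 CPM in WT. Integrated stress response genes had a median of 0.056 over 27 members (0.010 without HOM1, 0.10 without WT3 and -0.026 without HOM1 and WT4), of which Slc7a11 and Asns were higher at an unadjusted p below 0.05. Slc7a11, the cystine-glutamate exchanger of astrocytes and a target of Atf4 and Nrf2, stood at 151, 136, 127 and 127 CPM in DG/DG, against 114, 92.7, 86.4 and 127 CPM in WT. The lowest DG/DG libraries and WT4 were level to the unit.

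Heat shock and disaggregation genes, the Hsp70, Hsp40, Hsp110 and Hsp90 families among them, were higher in DG/DG for 27 of 37 members, with a median of 0.048. Hsp90aa1, the inducible Hsp90, stood at 460 to 520 CPM in DG/DG and 365 to 460 CPM in WT. Hspa4, an Hsp110 disaggregation cofactor, stood at 357, 343, 351 and 350 CPM in DG/DG, against 329, 294, 333 and 332 CPM in WT, without overlap. Its log2 fold change was 0.12, with a 95% interval of -0.005 to 0.25. Autophagy genes had a median of 0.018 over 38 members. Atg2a, which moves lipid to the growing autophagosome, stood at 49.99 to 62.5 CPM in DG/DG and 64.7 to 81.7 CPM in WT, and Gabarapl2, an Atg8 homologue, stood at 32.2 to 40.5 CPM in DG/DG and 27.2 to 33.7 CPM in WT. Lysosome genes were higher for 34 of 49 members, with a median of 0.060. At an unadjusted p below 0.05, 4 were higher and 0 lower, beside 2.14% and 2.98% of all genes. The 4 included the proton pump subunit Atp6v1h, the hexosaminidase subunit Hexa and the protease Ctss.

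Tau and its kinases and phosphatases had a median log2 fold change of 0.007 over 36 genes, 20 of them higher in DG/DG. Mark4, a kinase that phosphorylates tau in its microtubule-binding repeats, was the 1 member at an unadjusted p below 0.05, at 33.1, 27.04, 32.5 and 33.4 CPM in DG/DG, against 34.2, 46.2, 37.6 and 40.1 CPM in WT. Brsk1, a neuronal polarity kinase, stood at 163 to 240 CPM in DG/DG and 244 to 295 CPM in WT. Both kinases had no overlap between the groups, and WT2 was the highest library for each. They were the 2 members of the list without overlap, beside 2.62% of all genes. At an unadjusted p below 0.05 the list held 2.78% of its members, beside 5.12% of all genes. Among microtubule-associated proteins and tubulins 17 of 22 genes were higher, with a median of 0.10 that was 0.044 without HOM1. Mapre3, a plus-end binding protein, stood at 78.5 to 90.8 CPM in DG/DG and 86.0 to 107 CPM in WT.

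Genes of frontotemporal dementia and amyotrophic lateral sclerosis had a median of -0.037 over 34 members. Taf15, an RNA-binding protein, stood at 14.2, 17.8, 13.04 and 17.96 CPM in DG/DG, against 13.4, 27.4, 24.0 and 21.9 CPM in WT. WT1 lay inside the DG/DG range for Taf15, and the other WT libraries lay above it. Genes tied to Alzheimer disease had a median of -0.015 over 36 members. At an unadjusted p below 0.05, Cd33 and Trem2 were higher and Abca7 was lower, beside 2.14% and 2.98% of all genes. Cd33, a sialic acid receptor of microglia, stood at 3.98 to 4.81 CPM in DG/DG and 2.95 to 3.70 CPM in WT.

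Splicing regulators held more lower than higher genes at an unadjusted p below 0.05. Of 67 tested members 38 were lower in DG/DG, 10 of them at an unadjusted p below 0.05, and 1 was higher at that p, beside 2.98% lower and 2.14% higher of all genes. WT2 was the highest WT library for 72.6% of all genes lower at that p. The list median was -0.041, and 0.001 without WT2. Sugp1, a G-patch splicing factor, stood at 24.7, 23.4, 26.2 and 28.4 CPM in DG/DG, against 26.9, 41.0, 36.6 and 37.5 CPM in WT, a log2 fold change of -0.46 (SE 0.11). Srrm3, which promotes neuronal microexons, stood at 33.3, 30.1, 34.8 and 32.95 CPM in DG/DG, against 39.3, 44.2, 40.3 and 35.98 CPM in WT, without overlap. Srrm1 stood at 40.9, 51.3, 44.1 and 49.0 CPM in DG/DG, against 39.9, 86.7, 71.4 and 59.9 CPM in WT. WT1 lay inside or next to the DG/DG range for Sugp1 and Srrm1, and WT2 was the highest library for all 3 genes. Srpk3, an SR protein kinase, stood at 1.77 to 3.52 CPM in DG/DG and 3.09 to 5.55 CPM in WT. The other lower members at that p were Srrm2, Srrm4, Srsf2, Srsf4, Rbfox3 and Celf5, with log2 fold changes of -0.42 to -0.19, and Hnrnpk was the higher one, at 0.18.

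Among the remaining genes of small p, Mbd6, a methyl-CpG-binding domain protein, stood at 8.35, 7.92, 8.28 and 6.97 CPM in DG/DG, against 9.96, 27.4, 15.3 and 10.3 CPM in WT. The groups did not overlap, and the log2 fold change of -0.98 (SE 0.29) was -0.58 without WT2. Gtf3c2, a subunit of the RNA polymerase III factor TFIIIC, stood at 41.1 to 49.4 CPM in DG/DG and 48.2 to 71.2 CPM in WT. Zbtb7b, a zinc finger repressor, stood at 9.28 to 13.5 CPM in DG/DG and 14.1 to 17.9 CPM in WT. Gzf1, a zinc finger protein, went the other way, at 65.2, 68.4, 69.7 and 61.7 CPM in DG/DG, against 55.9, 58.0, 53.0 and 55.1 CPM in WT.

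Synaptic and channel genes were more often lower than higher. Synaptic vesicle and scaffold genes were lower in DG/DG for 41 of 61 members, with a median of -0.054. In each direction 1 gene reached an unadjusted p below 0.05, beside 2.14% higher and 2.98% lower of all genes. Dnm2, the widely expressed dynamin, stood at 44.9, 50.2, 50.7 and 46.0 CPM in DG/DG, against 57.1, 64.7, 56.2 and 53.0 CPM in WT, without overlap. Syt4, a synaptotagmin of dense-core vesicles, stood at 263 to 289 CPM in DG/DG and 227 to 253 CPM in WT, also without overlap. Voltage-gated ion channels were lower for 30 of 48 members, with a median of -0.044. Cacna1g, a T-type calcium channel, stood at 100, 78.5, 84.1 and 87.2 CPM in DG/DG, against 107, 143, 125 and 92.2 CPM in WT, with WT4 inside the DG/DG range. Cacna1a, a P/Q-type calcium channel, stood at 161 to 198 CPM in DG/DG and 164 to 295 CPM in WT.

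Neuron markers and transmitter receptors were centred near 0. Excitatory neuron markers had a median of -0.009 over 30 genes, inhibitory neuron markers 0.055 over 29 genes, and glutamate and GABA receptors -0.001 over 36 genes, with 0 receptor genes at an unadjusted p below 0.05. Otx1, a deep-layer transcription factor, stood at 1.09 to 1.57 CPM in DG/DG and 1.26 to 4.08 CPM in WT.

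Immediate early genes, which neurons switch on within minutes of activity, were higher in DG/DG for 24 of 32 members, with a median of 0.18. Egr2 stood at 23.5, 26.9, 18.04 and 20.8 CPM in HOM1 to HOM4, against 9.01, 21.7, 5.90 and 12.2 CPM in WT1 to WT4, a log2 fold change of 0.89 (SE 0.28). WT2 lay inside the DG/DG range and the other WT libraries lay below it. Fosl2 stood at 103 to 154 CPM in DG/DG and 74.6 to 118 CPM in WT. By the average level of the list WT2 was the highest of the 8 libraries, and the median was 0.39 without it.

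Since whole tissue was sequenced, more or fewer cells of a type and more or less RNA per cell cannot be told apart. Homeostatic microglia markers were higher for 26 of 31 genes, with a median of 0.20, which was 0.12 without HOM1. At an unadjusted p below 0.05, 4 were higher and 0 lower, beside 2.14% and 2.98% of all genes. Averaged on the log2 CPM scale the list stood at 4.556, 4.225, 4.425 and 4.38 in HOM1 to HOM4, against 4.335, 4.155, 4.173 and 4.283 in WT1 to WT4, so that HOM2 lay below WT1 and WT4. Fcrls, an Fc receptor-like gene of mouse microglia, stood at 33.8, 28.1, 26.6 and 26.8 CPM in DG/DG, against 23.1, 22.3, 25.2 and 21.1 CPM in WT, without overlap. Trem2, a lipid receptor that mouse microglia need to reach the disease-associated state, stood at 13.4, 7.92, 10.1 and 7.24 CPM in DG/DG, against 8.69, 7.17, 6.95 and 6.39 CPM in WT. HOM1 and HOM3 lay above every WT library for Trem2, and HOM2 and HOM4 overlapped. Disease-associated microglia genes had a median of 0.072 over 18 genes, and complement and MHC class I genes had a median of 0.10 over 29 genes, with 0 members of either list at an unadjusted p below 0.05. Their medians without HOM1 were -0.007 and 0.012. C1qb stood at 33.99 to 47.8 CPM in DG/DG and 30.7 to 38.9 CPM in WT.

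Interferon response genes divided. Of 41 tested members 29 had a positive log2 fold change, with a median of 0.083 that was 0.004 without HOM1. The 4 at an unadjusted p below 0.05 were all lower, beside 2.14% higher and 2.98% lower of all genes. Stat2, the signal transducer of type I interferon, had the smallest p among genes lower in DG/DG at that level, at 19.7, 17.4, 21.0 and 21.6 CPM in HOM1 to HOM4, against 22.7, 30.98, 27.6 and 27.5 CPM in WT1 to WT4. The groups did not overlap, and the log2 fold change was -0.45 (SE 0.10, unadjusted p 0.000426, adjusted p 0.886 by edgeR). Irf3, which induces interferon genes, stood at 11.6 to 14.8 CPM in DG/DG and 13.98 to 22.1 CPM in WT. Oas2 and Sp100, interferon-induced genes, stood at 0.320 to 0.589 and 0.959 to 1.95 CPM in DG/DG, against 0.521 to 0.984 and 1.66 to 2.78 CPM in WT.

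**Figure D4:**
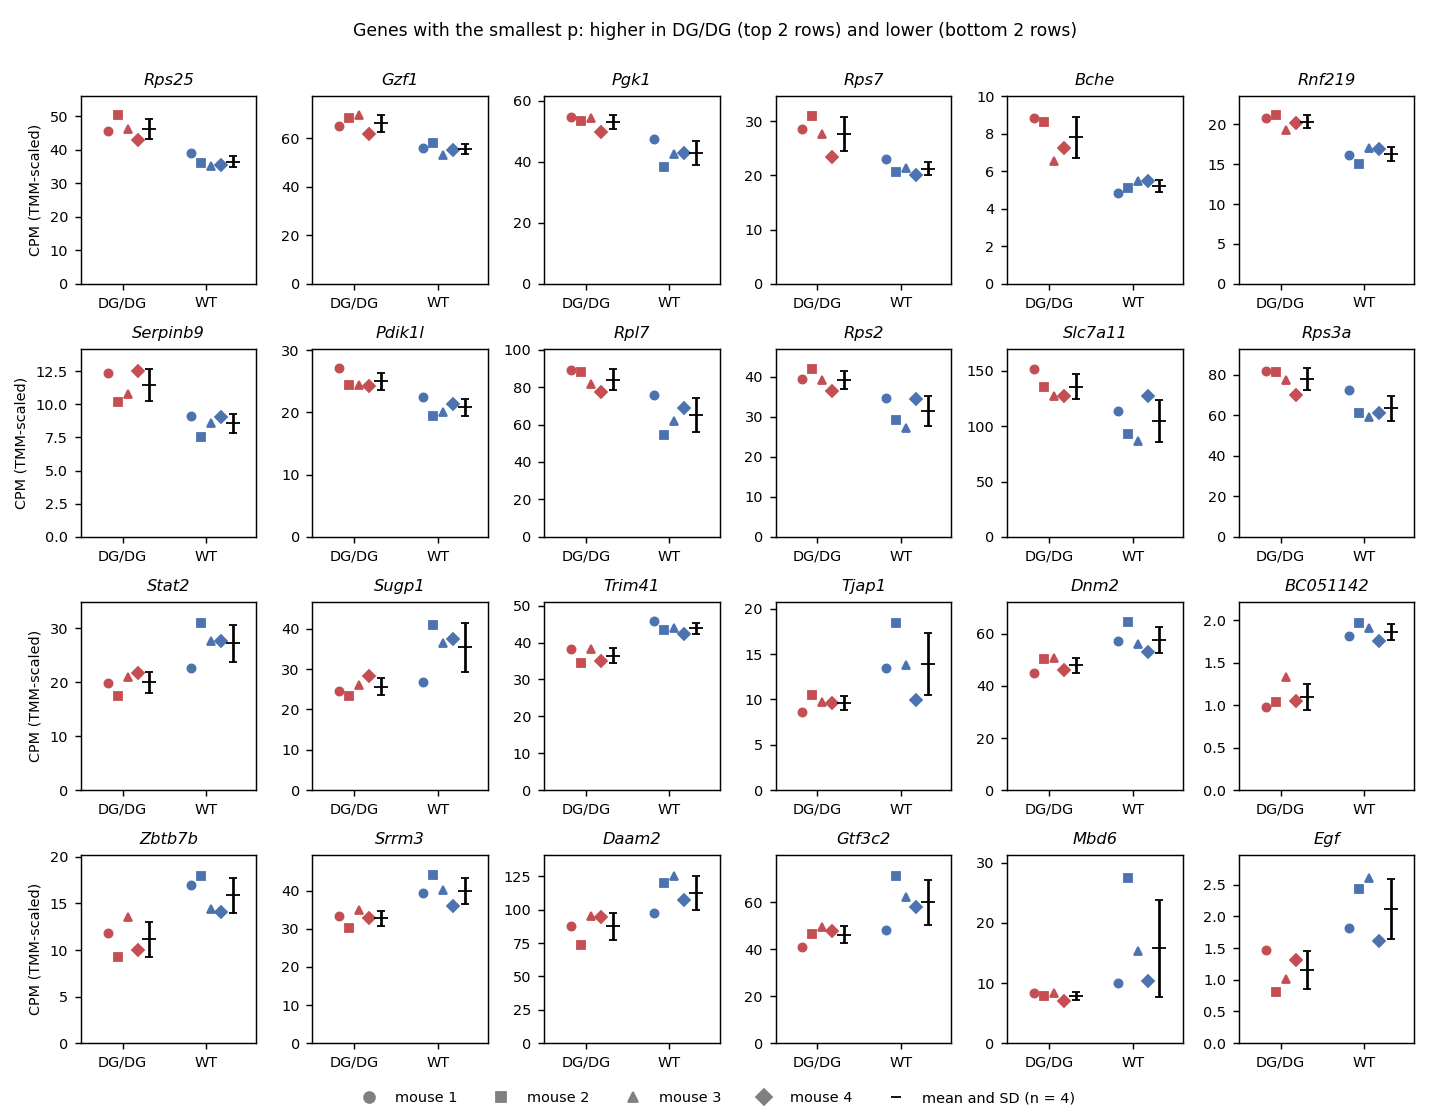
TMM-scaled CPM of the 12 genes with the smallest p among those higher in DG/DG (top 2 rows) and lower in DG/DG (bottom 2 rows), 1 point per library with DG/DG left of WT, the shape giving the mouse number and bars giving mean and SD (n = 4). The groups do not overlap for 20 of the 24 genes, and WT2 sets the WT extreme in many lower genes such as Mbd6 and Stat2.

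Astrocyte markers had a median of 0.015 over 30 genes. At an unadjusted p below 0.05, 4 were higher and 0 lower, beside 2.14% and 2.98% of all genes. Aqp4, the water channel of astrocyte endfeet, stood at 174, 169, 140 and 164 CPM in DG/DG, against 134, 116, 134.5 and 140.5 CPM in WT. HOM3 lay inside the WT range and the other DG/DG libraries lay above it. Ppp1r3c, which targets phosphatase 1 to glycogen, stood at 98.8 to 125 CPM in DG/DG and 82.7 to 102 CPM in WT. Reactive astrocyte genes had a median of 0.11 over 23 genes, 0.037 without WT3 and 0.20 without WT4, and on the list average WT1 and WT4 stood above every DG/DG library. The member Ggta1 stood at 6.56 to 8.74 CPM in DG/DG and 4.51 to 7.59 CPM in WT.

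Myelin genes of mature oligodendrocytes were lower in DG/DG for 21 of 30 members, with a median of -0.097 and 0 at an unadjusted p below 0.05. Mbp, myelin basic protein, stood at 844, 632, 1226 and 709 CPM in DG/DG, against 1139, 1362, 1306 and 706 CPM in WT. The groups overlapped widely, with HOM3 among the high libraries and WT4 among the low ones. The median of the list was -0.23 without WT4 and -0.003 without WT3. Egf, a growth factor at low level here, stood at 0.800 to 1.47 CPM in DG/DG and 1.62 to 2.60 CPM in WT. Daam2, a formin that acts on Wnt signalling in oligodendrocyte precursors, stood at 88.0, 73.4, 95.03 and 94.2 CPM in DG/DG, against 97.9, 120, 126 and 107 CPM in WT, without overlap.

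The other genes of smallest p had varied roles. Bche, butyrylcholinesterase, stood at 8.84, 8.64, 6.56 and 7.24 CPM in DG/DG, against 4.82, 5.09, 5.47 and 5.48 CPM in WT, a log2 fold change of 0.58 (SE 0.16) with a 95% interval of 0.25 to 0.91. Serpinb9, an inhibitor of granzyme B, stood at 10.2 to 12.6 CPM in DG/DG and 7.51 to 9.09 CPM in WT. Rnf219, a ubiquitin ligase that acts at replication origins in human cells, stood at 20.8, 21.1, 19.3 and 20.1 CPM in DG/DG, against 16.2, 15.0, 17.0 and 16.9 CPM in WT. Neither Bche nor Rnf219 nor Serpinb9 overlapped between the groups. The protein kinase gene Pdik1l stood at 24.2 to 27.1 CPM in DG/DG and 19.4 to 22.4 CPM in WT. Trim41, a ubiquitin ligase, stood at 38.3, 34.5, 38.2 and 34.9 CPM in DG/DG, against 45.8, 43.3, 43.9 and 42.3 CPM in WT. Tjap1, a tight junction associated protein, stood at 8.64 to 10.5 CPM in DG/DG and 9.98 to 18.4 CPM in WT, and WT4 overlapped the DG/DG range. BC051142 stood at 0.982 to 1.33 CPM in DG/DG and 1.76 to 1.97 CPM in WT. Of these 24 genes of smallest p 20 had no overlap, beside 2.62% of all genes, and since p chose them the count is a description. Under 25 alternative settings each, 0 of the 600 log2 fold changes had the other sign. Since p chose these genes in the same libraries, few reversals could occur, and this count is a description too.

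**Figure D5:**
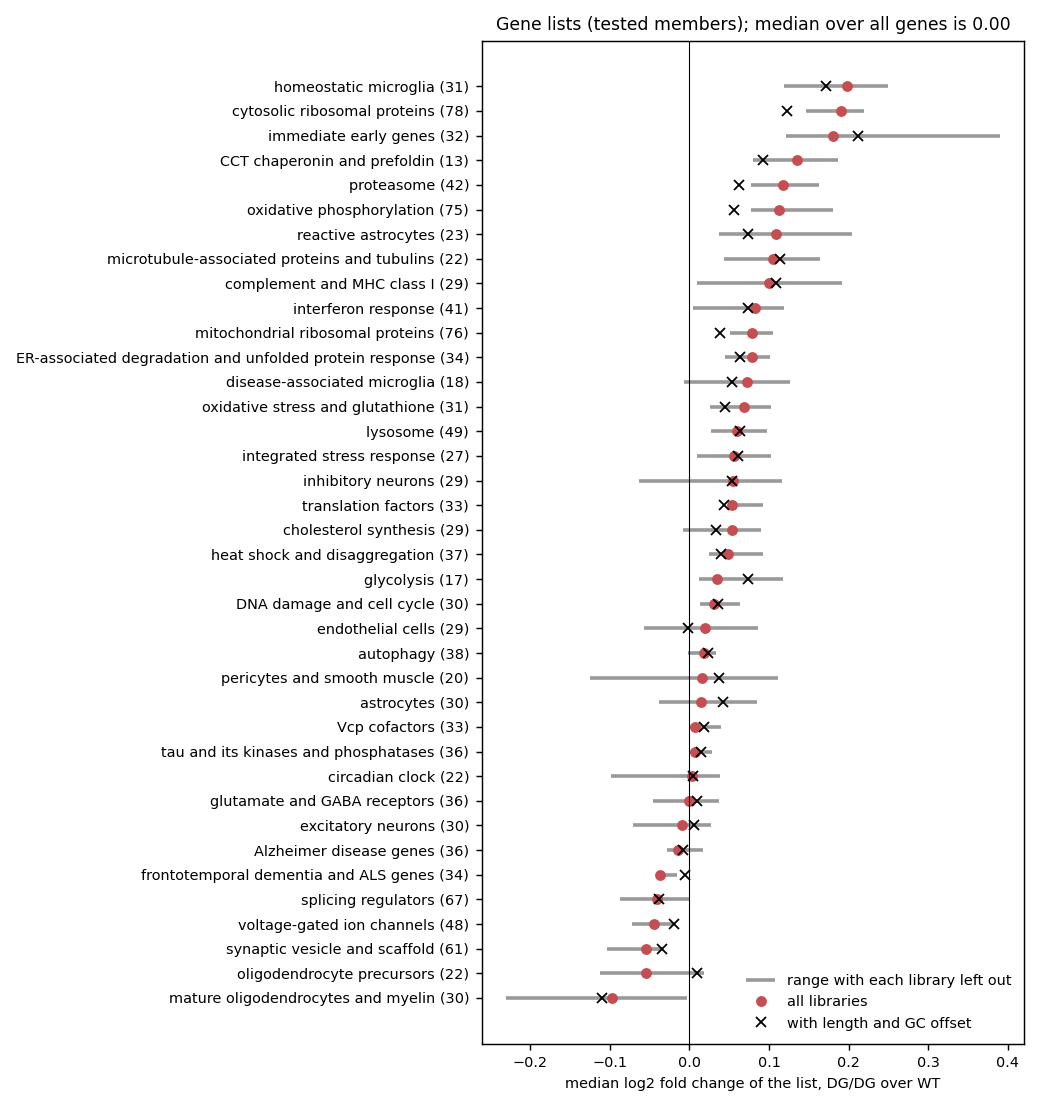
Median log2 fold change of DG/DG over WT for each gene list (red point, number of tested members in brackets), its range when each DG/DG or WT library is left out (grey bar) and its value with the length and GC offset (cross). Ribosomal proteins lie between 0.15 and 0.22 whichever library is left out, and the myelin list spans -0.23 to -0.003.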

How the data were processed

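Total RNA-seq of 8 libraries was compared, with the 6 DG/+ libraries also in the transcript choice, the filter, the scaling and the fit for the spread. The authors deposited raw counts per RefSeq transcript, normalized log2 values with an equal upper quartile in every library, and an edgeR table of log2 fold changes, p-values and false discovery rates. The submitters' processing notes name mm10 and edgeR. Neither aligner nor counter is given in the sources used here. Totals kept were 10.31 to 12.67 M counts in DG/DG and 8.65 to 14.28 M in WT. Intervals cover the spread between mice, and each mouse gave 1 library.

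For each gene the transcript with the largest summed count was kept. Near-identical genes such as Hbb-b1 and Hbb-b2 have the same counts and cannot be told apart. The main test was edgeR 4.0.16 in R 4.3.3 (filterByExpr, TMM, robust quasi-likelihood fit over 14 libraries, Benjamini-Hochberg adjustment), and the script was tested on simulated data. DESeq2 1.42.0 and limma 3.58.1 were alternatives, beside other scalings, filters, transcript choices, a Xist covariate, a length and GC offset, replicate blocks and left-out libraries. Lists were described by counts and medians, with no set test. Members and the 48 lists were chosen with earlier results of these data known. Genes named are Vcp, the 12 of smallest p and the 5 of largest fold change in each direction at a mean of 1 CPM or more, and up to 4 members per list by p, or by level for other tissues. Xist, 7 further splicing regulators and the neighbours of Vcp were named after their values were seen. Some genes under this rule are not reported here. Promoter windows and coordinates are from RefSeq GRCm38.p6.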

Additional observations from a re-analysis of the deposited data

Results flagged for a closer look

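In 17 of 166 groups of 4 libraries (10.2%) 1 library lay far from the other 3 by Dixon's criterion. Chance gives this in about 1 of 20 groups of unselected values. The groups here included genes chosen by fold change or p in these same libraries, so the share cannot be set against that rate. Most flagged groups were markers of pituitary, choroid plexus or cerebellum. HOM1 was apart from the other DG/DG libraries for Gh (1050 CPM, next 17.9), Prl (2740 CPM, next 72.6), Pomc (322 CPM, next 9.44), 5330437I02Rik (11.6 CPM, next 1.74) and Pdik1l (27.1 CPM, next 24.4). WT4 was apart from the other WT libraries for the choroid plexus genes Ttr (1170 CPM, next 55.8), Slc4a5 (11.1 CPM, next 0.578), Tmem72 (12.2 CPM, next 0.809), Folr1 (11.4 CPM, next 0.694) and Kcne2 (6.46 CPM, next 1.16).

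WT4 was also apart for the mean log2 CPM of choroid plexus markers, at 4.21, and was the lowest WT library for mature oligodendrocyte genes, at 5.31 against 6.06 in the next. WT3 was apart for cerebellar markers, at a mean log2 CPM of 4.74 against 3.57 in the next, and for Prl, at 9.12 CPM against 1.55 CPM. WT1 was apart for Rps3a, at 72.5 CPM against 61.1 CPM in the next, and for Slc10a4, at 3.71 CPM against 0.492 CPM. HOM3 was apart from the other DG/DG libraries for sex-linked markers, at a mean log2 CPM of 4.88 against 2.83 in the next.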

How the results depend on the processing

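No gene was called at an adjusted p of 0.05 or 0.1 under any of the 25 alternatives, DESeq2 and limma among them, and the log2 fold change of Vcp stayed between 0.12 and 0.23. The count at an unadjusted p below 0.05 (746) ranged from 345 to 1466 when each library was left out, and was 1402 without HOM1 and WT4. Genes without overlap (382) numbered 3100 without HOM1, WT3, WT4 and HET2, 1924 without HOM1 and WT4 and 2407 among the libraries with Xist (the last 2 chosen after seeing the data), where fewer libraries are compared. The labels tie no numbers to a shared origin and 1 same-numbered pair deviated oppositely (correlations 0.18, 0.28, -0.37 and 0.47), so the mice were not taken as paired, although 3 of the 4 DG/DG libraries correlated best with their own number. Over the 8 libraries alone, a replicate block by mouse number gave 721 genes at an unadjusted p below 0.05 and by title number 569, against 506 without a block, with 0 called.

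Of the alternative log2 fold changes of named genes, 4839 kept their sign and 30 had the other one. Most named genes were chosen by p in these same libraries, which makes a reversal less likely, so the tally is a description. The cause of the reversals was not tested beyond the libraries left out. With each library left out the value ran from -1.505 to 2.39 for Isl1, -0.53 to 2.75 for Slc18a3, -0.55 to 1.23 for Th, -0.40 to 2.05 for Slc5a7, -0.18 to 2.75 for Slc10a4 and -0.017 to 0.61 for Gng7, each lowest without HOM3. It ran from -0.52 to 1.41 for 5330437I02Rik, lowest without HOM1, and from -0.042 to 0.40 for Nmb, lowest without HOM2. It ran from -0.57 to 0.047 for Zic1, which was also 0.023 without HOM2, and Th was -0.053 without WT4. It ran from -0.35 to 0.00 for Per2, highest without WT2, and from -3.48 to 1.102 for Cbln3 and -2.95 to 0.35 for Fat2, highest without WT3. Without HOM1 and WT4 the values of other sign were those of 5330437I02Rik (-0.67), Cd9 (-0.052) and Th (-0.065). Without HOM1, WT3, WT4 and HET2 they were 5330437I02Rik (-0.61), Car2 (-0.030), Cbln3 (0.61), Cd9 (-0.077), Cerkl (0.044), Cspg5 (-0.002), Fat2 (0.87), Isl1 (-0.12), Slc18a3 (-0.25) and Th (-0.29). A Xist covariate gave Eif2s3y 0.042, and the libraries with Xist gave Ddx3x -0.030 and Per2 0.004. With 4 mice a group the median half-width of the 95% interval was 0.28 on the log2 scale, which limits what could be seen for small changes.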

Other observations

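Cholesterol synthesis genes had a median log2 fold change of 0.053 over 29 members, with 0 at an unadjusted p below 0.05, and DNA damage and cell cycle genes had 0.031 over 30 members, also with 0. Circadian clock genes had a median of 0.003 over 22 members, and -0.21 without HOM1 and WT4. The period gene Per3 stood at 50.5, 61.0, 58.3 and 52.6 CPM in DG/DG, against 58.2, 92.1, 82.1 and 57.0 CPM in WT, with WT1 and WT4 inside the DG/DG range. Oxidative stress and glutathione genes had a median of 0.069 over 31 members, 22 of them higher. At an unadjusted p below 0.05, 3 were higher and 0 lower, beside 2.14% and 2.98% of all genes. Prdx3, a mitochondrial peroxiredoxin, stood at 47.94 to 51.8 CPM in DG/DG and 36.5 to 47.85 CPM in WT. Gstp1, a glutathione transferase, stood at 49.7 to 68.2 CPM in DG/DG and 37.7 to 53.6 CPM in WT.

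Vascular markers had medians of 0.020 over 29 endothelial genes and 0.016 over 20 pericyte and smooth muscle genes. Slc16a1, a lactate transporter of brain endothelium, stood at 41.5 to 53.8 CPM in DG/DG and 36.1 to 42.9 CPM in WT. Oligodendrocyte precursor genes had a median of -0.054 over 22 members, lower for 15. Of 24 tested genes within 1 Mb of Vcp on chromosome 4, 6 were higher in DG/DG, beside 50.1% of all genes. Their median was -0.13, and the range ran from -0.33 for Glipr2 to 0.23 for Creb3. The 4 members at an unadjusted p below 0.05 were Pigo, B230312A22Rik, Npr2 and Creb3, beside 5.12% of all genes. Pigo had a log2 fold change of -0.26. The window as a whole was not tested, and its genes were named after their values were seen. Gm13306 and Ccl27b hold identical counts and count as 2 of the 24.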
